A study of Mus musculus with 20 samples.

Results

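The clustered protocadherin genes of the mouse, Pcdha, Pcdhb and Pcdhg, were taken as every gene on chromosome 18 whose symbol begins with Pcdha, Pcdhb or Pcdhg in the GENCODE vM21 basic annotation of mm10. The rule found 58 member genes of 55450 annotated genes, from chr18:36930184 to chr18:37841873, a span of 912 kb. With 100 kb added on either side, the region examined ran from chr18:36830184 to chr18:37941873, and it held 225 of the 136043 peaks in all lists. The members were 12 alternate Pcdha genes, 22 Pcdhb genes, 12 Pcdhga genes, 7 Pcdhgb genes and 5 C-type genes, namely Pcdhac1, Pcdhac2, Pcdhgc3, Pcdhgc4 and Pcdhgc5. A pair of genes carry the symbol Pcdha11 in that annotation, and the one that starts at 37005203 is called Pcdha10 here because RefSeq gives that name to the gene nearest to it. Pcdha spans chr18:36930184-37187661, Pcdhb chr18:37264938-37524479 and Pcdhg chr18:37661793-37841873, all on the plus strand.

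Chromatin immunoprecipitation with sequencing (ChIP-seq) located CTCF, MAZ and RAD21 in E14 mouse embryonic stem cells grown with LIF and 2i. In every group CTCF carried an auxin-inducible degron, so that addition of auxin leads to loss of the protein. WT stands for untreated cells of that line, ΔCTCF for the same line on auxin, ΔMAZ for untreated cells of 1 Maz knockout line made in that background, and ΔCTCF/ΔMAZ for the knockout line on auxin. The titles of the auxin libraries with a list give 2 days of treatment, and each of the 3 antibodies had 1 peak list in each of the 4 conditions. WT therefore denotes cells with a tagged CTCF and not unmodified cells, and an effect of Maz loss cannot be told apart from other differences between the lines. The lists hold no RNA, so the cell type label was not checked against marker genes.

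Clustered protocadherins are adhesion proteins of the cell surface that give neurons a surface identity. Each variable exon of the Pcdha and Pcdhg clusters has a promoter of its own and is spliced to constant exons shared by its cluster, whereas each Pcdhb gene is a single variable exon. CTCF, a zinc finger protein that halts loop extrusion by cohesin, is known to bind most of these promoters, and in the alternate Pcdha genes also a position inside the exon. Cohesin, of which RAD21 is a subunit, is known to link these promoters with enhancers that lie downstream of each cluster, among them HS5-1 between Pcdha and Pcdhb. C-type genes are known to be chosen in a different way from the alternate genes. MAZ is a zinc finger protein that binds GC-rich DNA and, like CTCF, has been described at chromatin boundaries.

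Each group had a single list, so differences between groups rest on individual libraries without replicates, and p-values are not given. Over the genome the CTCF lists of WT, ΔCTCF, ΔMAZ and ΔCTCF/ΔMAZ held 26394, 2381, 26053 and 2570 peaks, and each MAZ list of the knockout line held 33. Fold enrichment, the ratio of the read pileup at the summit to the local background, depends on the depth and background of its own library, so folds of different libraries are not on a common scale. Where they stand side by side, the percentile of the peak within its own list is given for the main sites. Read totals are unknown. By an index solved from the peak values, the RAD21 library of ΔCTCF was 2.18 times as deep as that of WT and 2.34 times as deep as that of ΔCTCF/ΔMAZ, and the CTCF library of WT was 1.58 times as deep as that of ΔCTCF. Variable exons resemble each other in sequence, and reads that match several of them may have been lost or misplaced by the mapping.

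In the protocadherin region, 59, 6, 52 and 5 CTCF peaks were called in WT, ΔCTCF, ΔMAZ and ΔCTCF/ΔMAZ, respectively. RAD21 peaks numbered 34, 23, 33 and 7 in the same order. For MAZ the region held 5 peaks in WT, 1 in ΔCTCF and 0 in both lists of the knockout line. The whole RAD21 lists held 20371, 17912, 20872 and 6400 peaks, so the region took 0.167%, 0.128%, 0.158% and 0.109% of them. After overlapping peaks were merged by antibody, there were 61 CTCF sites, 44 RAD21 sites and 6 MAZ sites. The 100 kb upstream of the Pcdha1 promoter peak held none of them. CTCF peaks of the region were of middling strength for their list, with a median at percentile 54.6 in WT, and RAD21 peaks stood lower in WT (percentile 36.3) than in ΔCTCF (percentile 66.5).

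CTCF lay mainly at the variable promoters. In WT, 46 of the 59 CTCF peaks (78%, exact 95% interval 65.3 to 87.7, counting error only) had their summit within 1 kb of the transcript start of a member gene. Over the genome 10.9% of CTCF peaks of WT had their summit within 1 kb of any start, and 10.6% of the region itself lies that close to a member start. Member promoters held 41 of 52 CTCF peaks in ΔMAZ (78.8%, genome 10.9%), 5 of 6 in ΔCTCF (83.3%, genome 16%) and 4 of 5 in ΔCTCF/ΔMAZ (80%, genome 16.1%). A promoter or variable exon with a CTCF peak was found for 43 of the 58 genes in WT (74.1%), and over all 55450 genes 5.62% had a CTCF summit of WT within 1 kb of a start. In ΔCTCF, ΔMAZ and ΔCTCF/ΔMAZ the member genes with CTCF numbered 5, 40 and 4, against 0.739%, 5.54% and 0.804% of all genes. Altogether 12 genes had no peak of any antibody in any list. The alternate genes are described by class, and differences between classes were not tested.

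**Figure D1:**
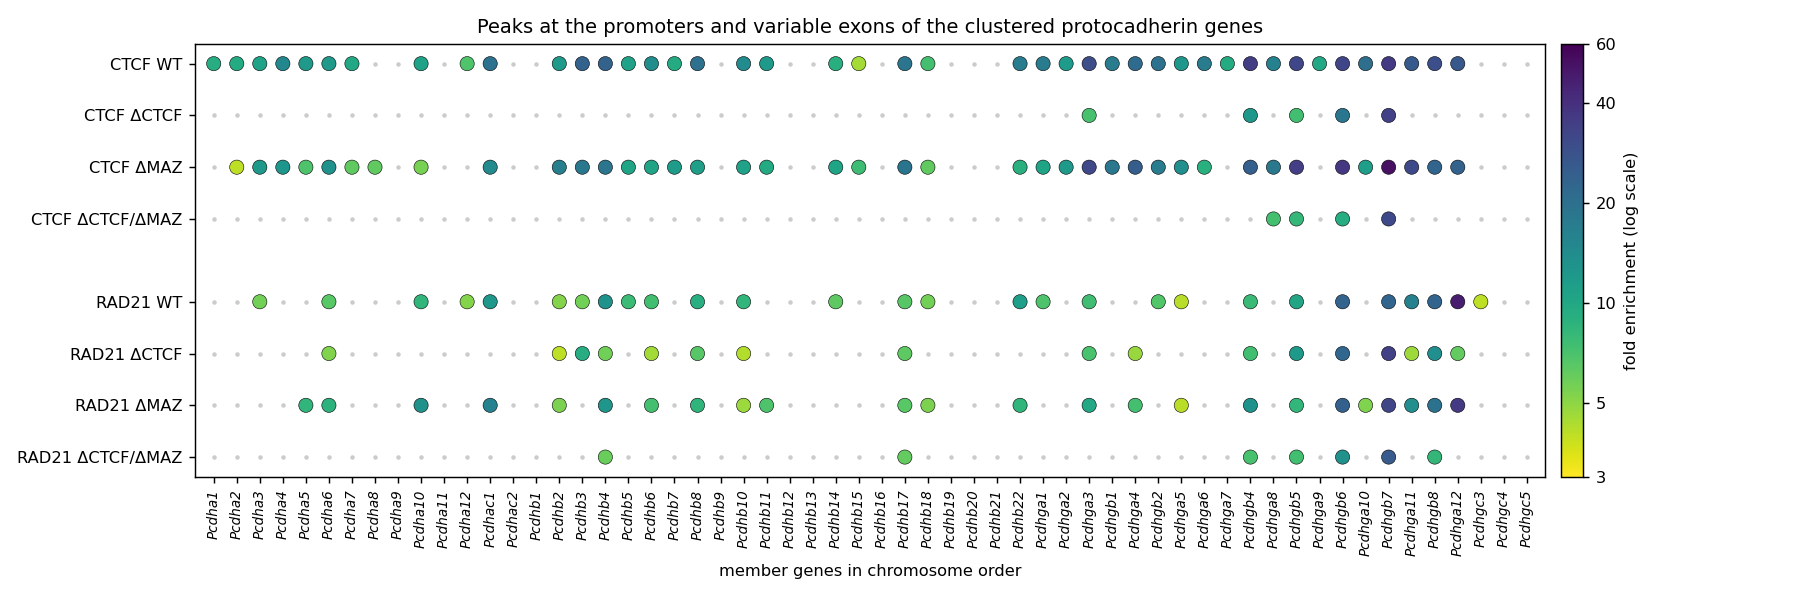
Fold enrichment of CTCF and RAD21 peaks at the promoter or variable exon of each of the 58 member genes, in chromosome order, with 1 row for each list. Colour gives the strongest peak of the gene on a log scale, and a small grey dot means no peak was called. After auxin CTCF peaks remained at 5 genes in ΔCTCF and 4 in ΔCTCF/ΔMAZ, all of them Pcdhg genes, while RAD21 peaks were called at 17 and 7 genes.

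Among the alternate Pcdha genes, 9 of 12 had CTCF in WT, namely Pcdha1 to Pcdha7, Pcdha10 and Pcdha12, with a median fold of 10.7 and a range from 6.82 to 14.9. Pcdha5, Pcdha6 and Pcdha10 each had a peak upstream of the start and another inside the exon. At Pcdha6 these had folds of 8.53 and 12. The C-type gene Pcdhac1, the only C-type gene with CTCF, had a stronger peak than any alternate Pcdha gene, with a fold of 19.3.

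Of the 22 Pcdhb genes, 14 had CTCF in WT, and the median fold was 13. The strongest were Pcdhb3 and Pcdhb4, both at 23.3, and the weakest was Pcdhb15 at 4.51, just above the lowest folds called in that list (percentile 0.629). The others were Pcdhb2, Pcdhb5, Pcdhb6, Pcdhb7, Pcdhb8, Pcdhb10, Pcdhb11, Pcdhb14, Pcdhb17, Pcdhb18 and Pcdhb22. Pcdhb14 also had a weak WT peak 2260 bp into its exon, with a fold of 6.66.

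Every one of the 12 Pcdhga and 7 Pcdhgb genes had CTCF in WT. The median fold was 17.3 for Pcdhga, from 9.66 at Pcdhga7 to 29.5 at Pcdhga3, and 31.8 for Pcdhgb, from 17.2 at Pcdhgb1 to 36.6 at Pcdhgb7. Pcdhgb peaks were thus the strongest class, and Pcdhgb7, Pcdhgb4, Pcdhgb6 and Pcdhgb5 gave 4 of the 5 highest CTCF folds of the region, the other being a peak inside Diaph1. In contrast, the C-type genes Pcdhgc3, Pcdhgc4 and Pcdhgc5 at the end of the cluster had no CTCF peak in any list.

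The summits kept a narrow place relative to the start. Of the 46 promoter summits of CTCF in WT, 37 lay upstream of the annotated start and 30 of them within 100 bp of it, with a median position of −60 bp and a range from −242 to 631 bp. The 5 summits farthest downstream were those inside the exons of Pcdha4, Pcdha5, Pcdha6, Pcdha7 and Pcdha10, at 433 to 631 bp. RAD21 summits of WT had a median of −52 bp, and 25 of 28 lay upstream. Pcdhga12 was an exception for both proteins, with the CTCF summit at 311 bp and the RAD21 summit at 347 bp inside the exon. Pcdhb17 was another, with the CTCF summit at 127 bp and the RAD21 summit at 151 bp.

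**Figure D2:**
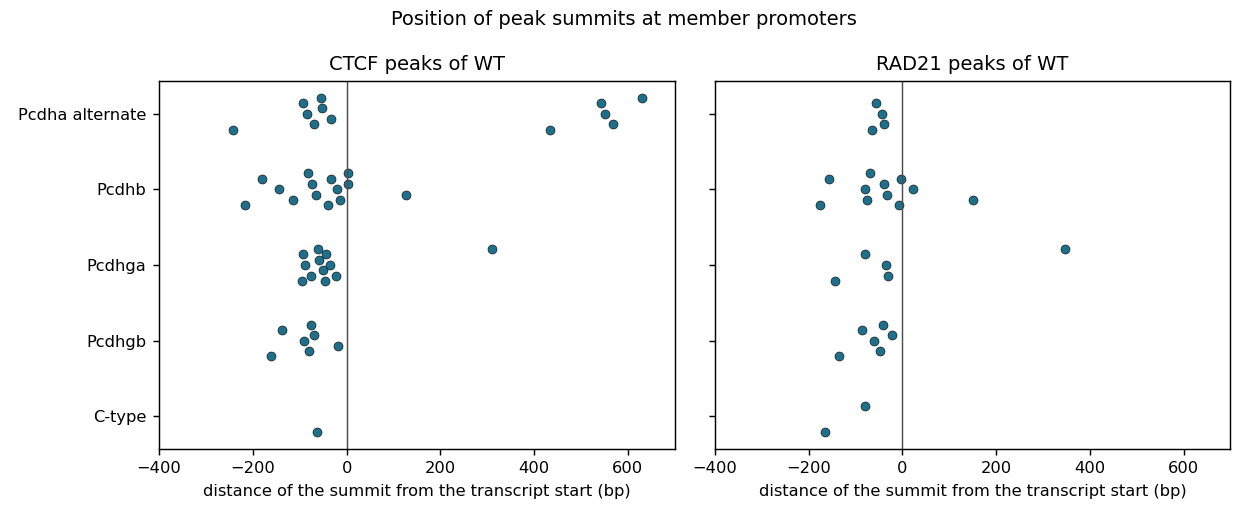
Distance of each WT peak summit from the annotated transcript start of its gene, in bp, for CTCF on the left and RAD21 on the right, with genes split by class and points spread vertically only for legibility. Most summits sit just upstream of the start, and the CTCF summits at 433 bp and beyond all belong to alternate Pcdha genes.

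The place of RAD21 summits relative to CTCF summits was compared at these promoters. Where a RAD21 peak and a CTCF peak overlapped at a promoter, the RAD21 summit was downstream of the CTCF summit at 17 of 27 promoters in WT (63%, exact 95% interval 42.4 to 80.6, median 21 bp) and at 22 of 24 in ΔMAZ (91.7%, exact 95% interval 73 to 99, median 18.5 bp). These intervals cover counting error over promoters of 1 library per protein and condition, not replicate error, and whether the conditions differ was not tested. All member genes lie on the plus strand, so downstream here means a higher coordinate. Over the whole lists the RAD21 summit had the higher coordinate at 50% of overlapping pairs in WT and 49.4% in ΔMAZ, but those sites lie on both strands, so an even split is what that measure gives whatever the offset, and it is no reference for genes of 1 strand. With the other sites of the region included, the shares were 60.6% in WT and 75% in ΔMAZ.

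To describe the DNA under the peaks, a core of the CTCF motif, AGNNGGC preceded by CC and 3 further bases, with N for any base, was searched for on both strands within 100 bp of each CTCF summit of WT. It was found at 12 of the 59 summits of the region (20.3%, exact 95% interval 11 to 32.8) and at 59.6% of all summits of the list, against 3.94% of windows placed 2000 bp beside the summits. The matches at Pcdha4, Pcdha5, Pcdha6, Pcdha7 and Pcdhac1 were on the plus strand, the strand of the genes. Of the other 7 matches, which lay outside the promoters, 6 were on the minus strand, among them the weaker peak between Pcdha and Pcdhb, the peak between Pcdhga12 and Pcdhgc3, and 3 peaks in or at Diaph1. Most protocadherin promoters with a CTCF peak thus did not hold these letters. The letters AGNNGGC alone were near 32.2% of the region's summits and 81.1% of all summits.

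Shorter strings, chosen after words had been counted in these windows, were more frequent at the promoters. They were searched on both strands, and every CGCTG is also a CGCT. On either strand CGCT was near 45 of the 46 promoter summits (97.8%) and CGCTG near 40 (87%). Over all CTCF summits of WT the shares were 43.3% and 22.8%, and in the windows beside those summits 25.8% and 11.5%. On the plus strand alone the promoter counts were 42 (91.3%) and 38 (82.6%), and on the minus strand 20 (43.5%) and 5 (10.9%). Over all summits the plus-strand shares were 27.4% and 12.9%, and the minus-strand shares 26.9% and 12.4%. In the windows beside them the plus-strand shares were 14.7% and 5.91%. Those sites lie on both strands, so their shares for a given strand are no reference for genes that all lie on the plus strand. The share at CTCF promoter summits of other genes was not counted. The nearest CGCTG lay a median of 15.5 bp from the summit and, on the plus strand, at a median position of −57 bp from the start. Of the 12 matches to the longer core, 2 ended on the first base of a CGCT on the same strand, and other overlaps were not counted. These counts are a description of the windows and do not show which bases CTCF contacts.

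Few CTCF sites were still called after auxin, and those lay in Pcdhg and Diaph1. Of the 59 CTCF peaks of WT, 6 (10.2%, exact 95% interval 3.82 to 20.8) overlapped a CTCF peak of ΔCTCF, near the share of 8.83% over the whole list. The genes that kept a peak were Pcdhga3, Pcdhgb4, Pcdhgb5, Pcdhgb6 and Pcdhgb7, and the sixth peak lay inside Diaph1 at chr18:37883266-37883974. No Pcdha and no Pcdhb promoter kept one. Among member promoters alone, 5 of 46 peaks remained (10.9%), and over the genome 12.7% of CTCF promoter peaks did. At the CTCF library depth of ΔCTCF, 52 of the 53 WT peaks with no partner would still have passed that list's lowest −log10 p.

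The CTCF sites still called in ΔCTCF were strong ones in WT. In WT the 6 peaks had folds from 29.5 to 36.6 and the 53 others from 4.51 to 30.6, and the 6 took ranks 1 to 5 and 7 among the 59. The strongest peak that was lost, at rank 6 with a fold of 30.6, lay inside Diaph1, and the next was Pcdhgb8 with 29.3. For comparison with the genome, WT peaks were split by fold into 5 equal groups. Of the strongest group 31.3% were still called in ΔCTCF, and of the weakest 0.777%. In the region 6 of the 13 peaks in the strongest group remained.

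**Figure D3:**
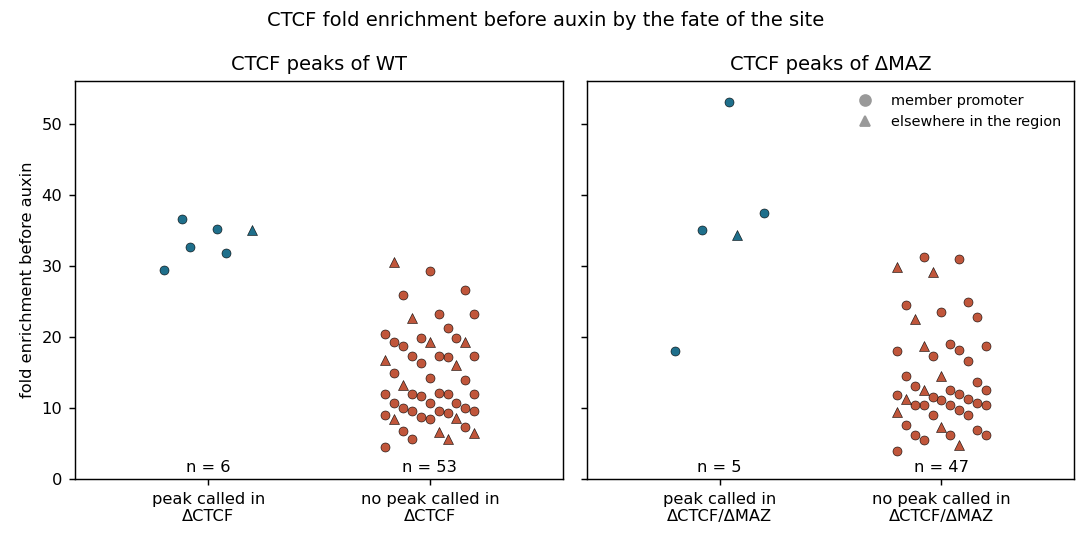
Fold enrichment of each CTCF peak of the region before auxin, in WT on the left and ΔMAZ on the right, split by whether a CTCF peak was called there after auxin. Circles are member promoters and triangles other sites, and points are spread sideways for legibility. In WT the 6 peaks that remained had folds of 29.5 to 36.6 and the 53 others 4.51 to 30.6, and in ΔMAZ the 5 that remained had 18.1 to 53 and the 47 others 4.05 to 31.3.

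Pcdhgb7 had the strongest CTCF peak in all 4 lists of the region. Its fold was 36.6 in WT (percentile 97.6), 34 in ΔCTCF (percentile 100), 53 in ΔMAZ (percentile 99.7) and 31 in ΔCTCF/ΔMAZ (percentile 99.8). Pcdhgb6 had folds of 32.6, 18.5, 37.4 and 9.42 in the same order, and in ΔCTCF it stood at percentile 96.4. Pcdhgb5 had 31.8, 7.43, 35 and 8.16, so after auxin it was a weak peak of its list in ΔCTCF (percentile 37).

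At 3 further promoters CTCF was called after auxin in only 1 of the cell lines. Pcdhgb4 had folds of 35.2 in WT, 12.2 in ΔCTCF and 24.5 in ΔMAZ, and no peak in ΔCTCF/ΔMAZ. Pcdhga3 had 29.5, 7.16 and 31.3, and likewise no peak in ΔCTCF/ΔMAZ. Pcdhga8 showed the opposite, with folds of 16.3 in WT, 18.1 in ΔMAZ and 7.38 in ΔCTCF/ΔMAZ but no peak in ΔCTCF. After auxin Pcdhga3 and Pcdhga8 were weak peaks of their lists (percentile 25.1 and percentile 28.1), whereas Pcdhgb4 stood at percentile 82.4, and whether the lines differ at these genes was not tested. Of the 6 CTCF peaks of ΔCTCF, 4 (66.7%) overlapped one of ΔCTCF/ΔMAZ, against 64.8% over the list, and in the other direction 4 of 5 did (80%), against 60%.

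**Figure D4:**
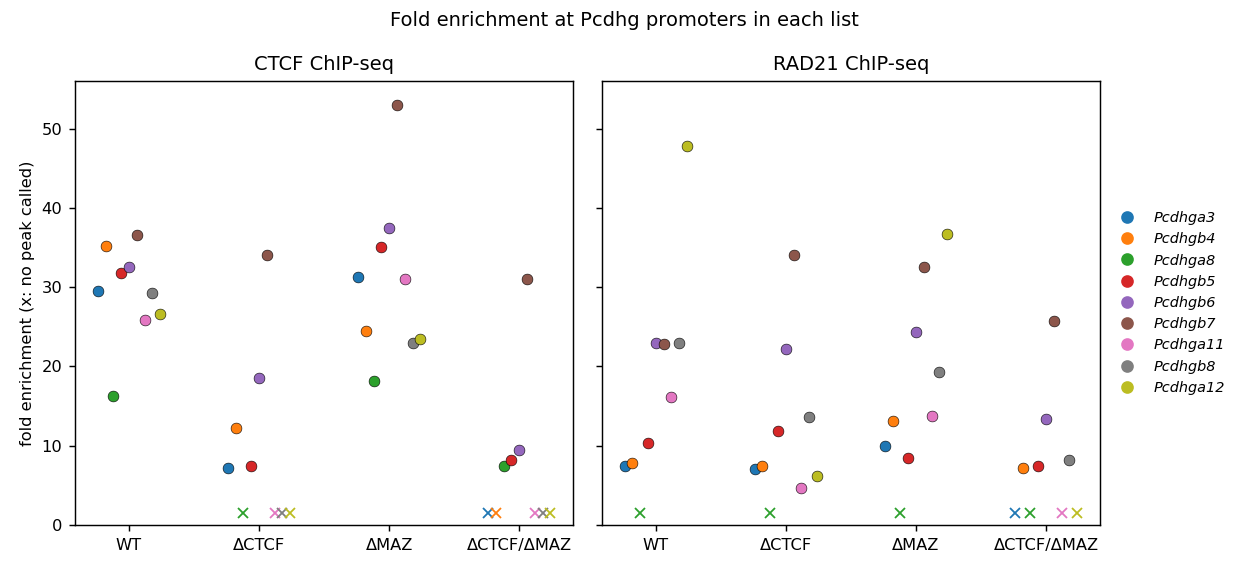
Fold enrichment of CTCF on the left and RAD21 on the right at 9 Pcdhg promoters in each of the 4 conditions, with a cross near the base where no peak was called. Folds of different libraries are not on a common scale. Pcdhgb7 has the highest CTCF point in every condition, and the highest RAD21 point moves from Pcdhga12 in WT and ΔMAZ to Pcdhgb7 in ΔCTCF and ΔCTCF/ΔMAZ.

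Loss of MAZ without auxin left most CTCF sites of the region in place. Of the 59 CTCF peaks of WT, 50 (84.7%, exact 95% interval 73 to 92.8) overlapped a peak of ΔMAZ, against 85.5% over the list. In the other direction 50 of the 52 peaks of ΔMAZ (96.2%) overlapped one of WT, against 86.7%. The 9 others had folds of 5.68 to 10 in WT and included the promoter peaks of Pcdha1, Pcdha12, Pcdhga7 and Pcdhga9, which had no CTCF peak in ΔMAZ. Pcdha8 and the exon of Pcdhb18 had CTCF in ΔMAZ alone, with folds of 6.23 and 4.85. In the knockout line auxin left 5 of 52 CTCF peaks (9.62%, exact 95% interval 3.2 to 21), and the share over the list was 9.72%. Among member promoters 4 of 41 remained (9.76%), against 14.2% of CTCF promoter peaks over the genome.

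RAD21 was called at fewer promoters than CTCF in WT and, apart from 1 gene, always with it. RAD21 peaks lay at 28 of the 58 genes in WT (48.3%), against 4.38% of all genes, and 28 of the 34 peaks of the region (82.4%) were at member promoters, against 11.1% at any start over the genome. Of the 34 peaks, 33 (97.1%, exact 95% interval 84.7 to 99.9) overlapped a CTCF peak of WT, and the share over the list was 86%. The remaining one was the weak RAD21 peak at Pcdhgc3, with a fold of 4.05 (percentile 1.41). In the other direction, 33 of the 59 CTCF peaks (55.9%, exact 95% interval 42.4 to 68.8) had RAD21, against 66.3% over the list. The same share in ΔMAZ was 32 of 52 (61.5%), against 66.7%.

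By class, RAD21 in WT was found at 4 of 12 alternate Pcdha genes, 11 of 22 Pcdhb genes, 5 of 12 Pcdhga genes, 6 of 7 Pcdhgb genes and 2 of 5 C-type genes, all read against the same 4.38% of all genes, and differences between the classes were not tested. Pcdhga12 had by far the strongest RAD21 peak, with a fold of 47.8 (percentile 99.3), although its CTCF fold of 26.6 was not among the 6 highest. Pcdhgb6 and Pcdhgb8 followed with 23 each and Pcdhgb7 with 22.8. The 16 genes with CTCF but no RAD21 peak in WT included 5 alternate Pcdha genes, 3 Pcdhb genes and 8 Pcdhg genes. CTCF folds were higher where RAD21 was also called, with a median of 18.7 at the 33 sites with RAD21 and 10.8 at the 26 without. Over the whole list the share of CTCF peaks with RAD21 likewise rose, from 30.3% in the weakest strength group to 91.7% in the strongest. If each strength group of the region had the share of its group over the genome, the count with RAD21 would be 41.4.

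In ΔCTCF, RAD21 was called at 17 member genes (29.3%), against 9.49% of all genes, and CTCF at 5. Member promoters held 17 of the 23 RAD21 peaks of ΔCTCF (73.9%), against 26.2% at any start over the genome. Of the 34 RAD21 peaks of WT, 18 (52.9%, exact 95% interval 35.1 to 70.2) overlapped a RAD21 peak of ΔCTCF, against 38.9% over the list. If each strength group of the region had the share of its group over the genome, the count would be 12. Among promoter peaks alone, 16 of 28 remained (57.1%), and over the genome 50.7% of RAD21 promoter peaks did. The ΔCTCF library was the deeper one.

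The genes with RAD21 in ΔCTCF fell into 2 sets, and all but Pcdhga4 also had it in WT. At Pcdhga3, Pcdhgb4, Pcdhgb5, Pcdhgb6 and Pcdhgb7, CTCF was still called in ΔCTCF. All 6 CTCF peaks of ΔCTCF in the region had RAD21 (exact 95% interval 54.1 to 100), against 89.7% over the list. At 12 other genes RAD21 was called in ΔCTCF and CTCF was not, namely Pcdha6, Pcdhb2, Pcdhb3, Pcdhb4, Pcdhb6, Pcdhb8, Pcdhb10, Pcdhb17, Pcdhga4, Pcdhga11, Pcdhgb8 and Pcdhga12. The CTCF folds in WT at the 14 sites that lost CTCF and had RAD21 in ΔCTCF, these genes and 2 sites in or at Diaph1, ran from 8.53 to 29.3 with a median of 19.6, against a median of 12.1 over all 53 sites that lost CTCF. Over the whole list, with CTCF lost or kept, the share of WT CTCF peaks with RAD21 in ΔCTCF also rose with strength. It was 2.71% in the weakest strength group and 66.8% in the strongest. No MAZ peak was called at any of the 12 promoters in WT or ΔCTCF, the conditions with MAZ present. The share of such sites with MAZ over the genome was not counted, and the MAZ library of ΔCTCF was shallower than that of WT. What this count means for RAD21 was not tested.

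The order of RAD21 folds differed between WT and ΔCTCF. Pcdhga12 had a fold of 47.8 in WT and 6.19 in ΔCTCF, at percentile 99.3 and percentile 71.6 of those lists. Pcdhgb7 had 22.8 in WT (percentile 87.1) and 34.1 in ΔCTCF (percentile 99.7), the strongest RAD21 peak of the region after auxin. Pcdhgb6 stood at percentile 87.6 and percentile 98.3, Pcdhgb5 at 51.7 and 91.3, and Pcdhgb8 at 87.6 and 93.5, although the fold of Pcdhgb8 was 23 in WT and 13.6 in ΔCTCF. Pcdhga11 had folds of 16.2 and 4.65, at percentile 74.3 and percentile 44.6. Of the 18 RAD21 sites called in both lists, 13 stood at a higher percentile in ΔCTCF than in WT, and over the genome 54.8% of WT peaks with a partner did. Percentiles give the standing of a peak in its own list, and the lists differ in length, depth and make-up, so this count does not measure a change of binding. The 5 others were Pcdhb10, Pcdhga11, Pcdhga12 and 2 sites in or at Diaph1. Among the Pcdhb genes, Pcdhb3 had 5.65 in WT (percentile 15.4) and 9.29 in ΔCTCF (percentile 86.7), and Pcdhb4 had 13 and 5.72, at nearly the same percentile of 64.5 and 66.5.

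Few RAD21 peaks of ΔCTCF lay away from the WT sites of the region. Of the 23 RAD21 peaks of ΔCTCF, 18 (78.3%, exact 95% interval 56.3 to 92.5) overlapped a RAD21 peak of WT, against 44.1% over the list, and 20 (87%, exact 95% interval 66.4 to 97.2) lay on a CTCF site of WT, against 41.1%. Read from the CTCF side, 20 of the 59 CTCF peaks of WT (33.9%) had RAD21 in ΔCTCF, against 27.9% over the list. Of the 23 RAD21 peaks, 6 (26.1%, exact 95% interval 10.2 to 48.4) overlapped a CTCF peak of ΔCTCF, against 11.9% over the list. The 5 with no RAD21 partner in WT lay at the Pcdhga4 promoter (fold 4.76), in the Pcdhg constant part (4.48) and inside Diaph1 (3.93, 5.15 and 3.29). When scaled to the WT depth, 3 of these 5, those at Pcdhga4, in the constant part and the Diaph1 peak with a fold of 5.15, would have passed the limit of the WT list. No RAD21 peak of ΔCTCF lay at a promoter with neither CTCF nor RAD21 in WT.

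In ΔMAZ, RAD21 was called at 24 of the 58 genes (41.4%), against 5.39% of all genes. Of the 34 RAD21 peaks of WT, 26 (76.5%, exact 95% interval 58.8 to 89.3) overlapped one of ΔMAZ, against 83.5% over the list. In the other direction it was 26 of 33 (78.8%), against 81.5%. Member promoters held 24 of the 33 RAD21 peaks of ΔMAZ (72.7%), against 13.2% at any start. Pcdha3, Pcdha12, Pcdhb3, Pcdhb5, Pcdhb14, Pcdhga1, Pcdhgb2 and Pcdhgc3 had RAD21 in WT and not in ΔMAZ, with WT folds of 4.05 to 7.83. Pcdha5, Pcdhb11, Pcdhga4 and Pcdhga10 had it in ΔMAZ and not in WT, with folds of 5.35 to 8.49 in ΔMAZ. In ΔMAZ 32 of 33 RAD21 peaks (97%, exact 95% interval 84.2 to 99.9) lay on a CTCF peak, against 83.3% over the list.

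In ΔCTCF/ΔMAZ, RAD21 was left at 7 promoters (12.1% of the 58 genes), against 3.25% of all genes. These were Pcdhb4, Pcdhb17, Pcdhgb4, Pcdhgb5, Pcdhgb6, Pcdhgb7 and Pcdhgb8, with folds of 5.95, 6.16, 7.2, 7.47, 13.3, 25.7 and 8.24. All 7 also had RAD21 in WT, ΔCTCF and ΔMAZ, and 5 of the 7 are Pcdhgb genes. The 7 peaks were the whole list within the region, and over the genome 24.1% of RAD21 peaks of ΔCTCF/ΔMAZ lay at a start. Each overlapped a RAD21 peak of ΔMAZ, as did 73.1% of the whole list, and each lay on a CTCF peak of ΔMAZ, as did 65.6%. Of the 33 RAD21 peaks of ΔMAZ, 7 (21.2%, exact 95% interval 8.98 to 38.9) remained, near the share of 22.4% over the list. Among member promoters 7 of 24 remained (29.2%), against 28% of RAD21 promoter peaks over the genome. All 26 RAD21 peaks of ΔMAZ with no partner would have passed the limit at the lower depth of ΔCTCF/ΔMAZ.

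The 10 promoters with RAD21 in ΔCTCF and not in ΔCTCF/ΔMAZ were Pcdha6, Pcdhb2, Pcdhb3, Pcdhb6, Pcdhb8, Pcdhb10, Pcdhga3, Pcdhga4, Pcdhga11 and Pcdhga12. Of the 23 RAD21 peaks of ΔCTCF in the region, 7 (30.4%, exact 95% interval 13.2 to 52.9) overlapped one of ΔCTCF/ΔMAZ, against 29.5% over the list. Of the 16 others, 13 would have passed the limit at the lower depth. In ΔCTCF/ΔMAZ 3 of the 7 RAD21 peaks lay on a CTCF peak of that condition (42.9%, exact 95% interval 9.9 to 81.6), against 31.5% over the list. From the CTCF side, 3 of 5 CTCF peaks of ΔCTCF/ΔMAZ (60%) had RAD21, against 78.4%, and 7 of the 52 CTCF peaks of ΔMAZ (13.5%) had RAD21 in ΔCTCF/ΔMAZ, against 16.1%. Pcdhb4, Pcdhb17, Pcdhgb4 and Pcdhgb8 had RAD21 there and no CTCF peak.

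**Figure D5:**
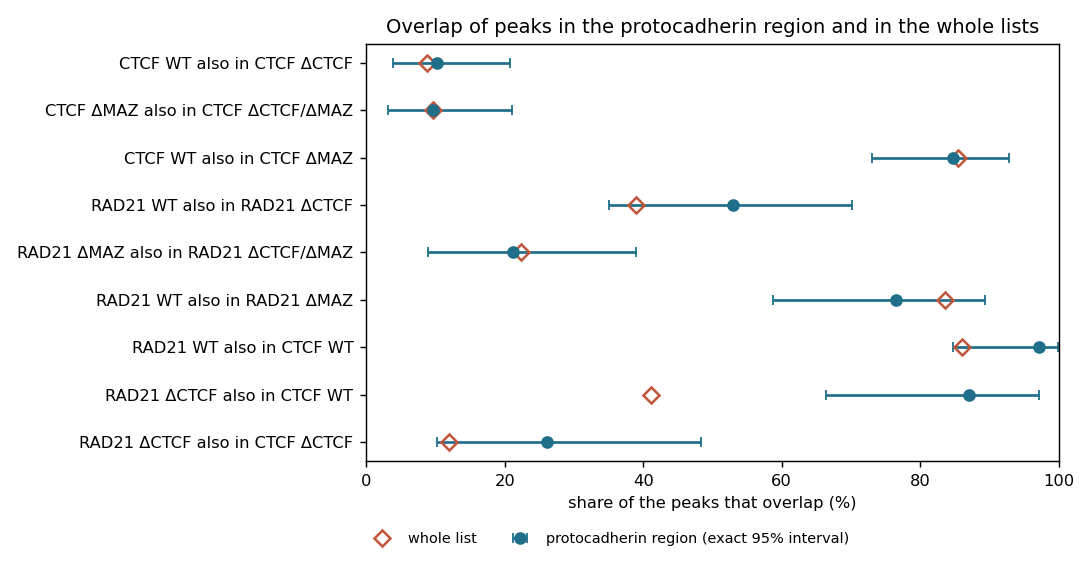
Share of peaks of one list that overlap a peak of another, in percent, for peaks of the protocadherin region (circles, with exact 95% intervals that cover counting error only) and for the whole list (diamonds). The 3 CTCF shares drawn, 10.2%, 9.62% and 84.7%, have intervals that include the value of the whole list, whereas 87% of the RAD21 peaks of ΔCTCF in the region lay on a CTCF site of WT against 41.1% of the whole list.

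Downstream of the Pcdha constant exons, in the 77.3 kb before Pcdhb1 where HS5-1 is known to lie, there were 2 CTCF sites less than 1 kb apart. The stronger, at chr18:37218315-37218660, had folds of 19.3 in WT and 12.5 in ΔMAZ, and the weaker, at chr18:37217380-37217633, had 8.55 and 7.31. Neither was called in a list after auxin. RAD21 at the stronger one had folds of 5.52 in WT and 8.49 in ΔMAZ, and at the weaker one 4.4 in ΔMAZ alone. RAD21 peaks were likewise absent there from ΔCTCF and ΔCTCF/ΔMAZ. No source used here gives the enhancer's coordinates, so the sites were not matched to it.

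Between Pcdhb and Pcdhg the only peaks were CTCF peaks at the promoter of 3222401L13Rik, at chr18:37655389-37655768, with folds of 16.8 in WT and 11.3 in ΔMAZ and none after auxin. Between Pcdhga12 and Pcdhgc3, CTCF at chr18:37771945-37772338 had folds of 22.7 in WT and 29.1 in ΔMAZ and no RAD21 peak in any list, although its CTCF peak was stronger than most promoter peaks. The constant part of Pcdhg held a weak CTCF peak in WT (5.68) and weak RAD21 peaks in ΔCTCF (4.48) and ΔMAZ (4.53), at different places.

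Downstream of the last Pcdhg exon, in Diaph1, which codes for an actin-nucleating formin and is transcribed toward the cluster, there were 7 CTCF sites. The site nearest to the cluster, at chr18:37852090-37852677, had CTCF folds of 30.6 in WT and 29.8 in ΔMAZ and RAD21 folds of 21.7 and 17, and neither protein was called there after auxin. The site at chr18:37883266-37883974 had CTCF folds of 35, 7.87, 34.4 and 8.52 in WT, ΔCTCF, ΔMAZ and ΔCTCF/ΔMAZ, the only site outside the promoters with CTCF in all 4 lists. RAD21 at that site was called in ΔCTCF (5.15) and ΔMAZ (7.85) and not in WT, in spite of the strong CTCF peak.

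The other Diaph1 sites lost CTCF with auxin. At chr18:37880237-37880635 CTCF had 19.3 in WT and 18.7 in ΔMAZ, and RAD21 had 19.8 in WT, 6.12 in ΔCTCF and 15.9 in ΔMAZ. At chr18:37908100-37908370 CTCF had 13.3 and 14.5, and RAD21, with 22.2 and 13.9, was called only before auxin. The promoter of Diaph1 had CTCF folds of 16.1 and 22.5 and RAD21 folds of 8.55 in WT, 4.13 in ΔCTCF and 7.48 in ΔMAZ. It lies beside the gene Hdac3, which codes for a histone deacetylase. At chr18:37877399-37877755 CTCF had 8.61 and 9.41, with RAD21 at 6.77 and 7.31 before auxin only, and a weak CTCF peak at chr18:37887044-37887271 (6.58) was called in WT alone. No RAD21 peak of ΔCTCF/ΔMAZ lay in this interval.

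MAZ was called at few protocadherin promoters. The share of all genes with a MAZ summit near a start was not counted, so whether this is fewer than usual is not known. The only MAZ peak at a member gene was at Pcdhac2 in ΔCTCF, with a fold of 4.26 (percentile 7.81 of its list), and no promoter had a MAZ peak in WT. That peak overlapped no MAZ peak of WT, whereas 61.6% of the list did, and 73.4% of the list lay within 1 kb of a start. Over the genome 76.6% of MAZ peaks of WT lay within 1 kb of a start. The 5 MAZ peaks of WT were 2 in the Pcdhg constant part (3.48 and 2.67), 1 just downstream of it (4.71), 1 inside Diaph1 (4.49) and 1 at the Diaph1 promoter (3.34). None overlapped a MAZ peak of ΔCTCF, against 66.3% over the list, but that library was shallower by a factor of 2.65, and only 3 of the 5 would have passed its limit at that depth. The MAZ peak inside Diaph1 and the one at the Diaph1 promoter lay on CTCF and RAD21 sites.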

How the data were processed

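The 12 peak lists analysed cover 3 antibodies and 4 conditions, with 1 list per group, and 8 further samples of the 20 in the series were not used here. Sample titles gave the groups. Per the methods and labels, the authors mapped reads to mm10 with Bowtie 2 at its default settings. They applied a quality filter and duplicate removal in SAMtools, and then ran MACS for narrow peaks, 1 library at a time. Whether an input control was used, and whether the quality filter removed reads with several matches, is not given in the sources used here. Scaling by spike-in reads, or by total reads for RAD21, is stated for tracks, heat maps and density plots only.

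Fold enrichment, as deposited, is the ratio between the pileup and the local background after 1 is added to each. The authors' lists also give −log10 p and −log10 q values, a score derived from the q-value that was used for no result, and the summit offset as deposited.

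Member genes and lists were chosen with earlier results of these data known. A promoter was the 1 kb on either side of a member's transcript start, and a variable exon the rest of its first exon. Peaks that overlapped by at least 1 bp were counted as shared, and overlapping peaks of an antibody were merged into sites. A member was named where any list had a summit at its promoter or variable exon. Intervals are exact Clopper-Pearson intervals (SciPy 1.17.1). Pileups were solved from the fold enrichment and −log10 p within 0.001, and the lowest background divided by the smallest peak width gave an index of depth. For depth scaling, the pileup and background of the deeper list were multiplied by the depth ratio, and a peak was kept if its −log10 p reached the minimum found in the shallower list. Letters were read from GRCm38.p6, the assembly of mm10, with samtools 1.23.1. Overlaps were checked against bedtools 2.31.1, and the solver was tested on simulated data. The figures were drawn with matplotlib 3.10.9. Alternatives were reciprocal overlap of 50%, a gap of up to 500 bp, −log10 q of at least 5, equal list lengths, no flanks, depth scaling, promoter distances of 500 bp and 2.5 kb, and other letters. The CGCT letters and the shares weighted by strength group were added after the data were seen. No bases of the region are printed.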

Additional observations from a re-analysis of the deposited data

Results flagged for a closer look

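At 2 RAD21 sites the call moved in opposite ways with auxin in the 2 cell lines, which was not tested since each group had 1 list. At the Pcdhga4 promoter no RAD21 peak was called in WT, a peak with a fold of 4.76 was called in ΔCTCF, and the fold of 7.33 in ΔMAZ was followed by no call in ΔCTCF/ΔMAZ. Inside Diaph1, at the site with CTCF in all 4 lists, RAD21 was not called in WT, had a fold of 5.15 in ΔCTCF and 7.85 in ΔMAZ, and was not called in ΔCTCF/ΔMAZ. The RAD21 library of ΔCTCF was 2.18 times as deep as that of WT. Scaled to the depth of WT, the peaks of ΔCTCF at these sites had −log10 p values of 5.47 at Pcdhga4 and 6.01 inside Diaph1, above the minimum of 4.03 in the WT list.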

How the results depend on the processing

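No paired analysis was possible because only 1 library of each group came with a list, so that any groups compared share fewer than 2 replicate numbers among the lists. Of 126 alternative values for 35 results, 116 stayed within the exact 95% interval of the main share or within 1.5 times the main count. With equal list lengths, which keeps only the strongest peaks of the longer list, the share of CTCF peaks still called was 75% from WT to ΔCTCF (6 of 8 peaks, whole lists 42.5%) and 50% from ΔMAZ to ΔCTCF/ΔMAZ (4 of 8, whole lists 51.4%). In that setting the RAD21 shares were 42.9% from ΔMAZ to ΔCTCF/ΔMAZ (3 of 7, whole lists 51.7%) and 58.3% from ΔCTCF to ΔCTCF/ΔMAZ (7 of 12, whole lists 61.9%), and 75% of the RAD21 peaks of ΔCTCF (3 of 4) lay on a CTCF peak of ΔCTCF (whole lists 57%). With −log10 q of at least 5, all 32 RAD21 peaks of WT lay on CTCF peaks (100%), and the MAZ peaks of the region numbered 3 in WT and 0 in ΔCTCF. The strings CGCT and CGCTG, added after the data were seen, were near 88.1% and 79.7% of the region's CTCF summits on either strand, and near 43.3% and 22.8% of all CTCF summits of WT. Libraries of lower depth, such as MAZ in ΔCTCF and RAD21 in ΔCTCF/ΔMAZ, limit what a missing call shows at weak sites.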
